A study of Mus musculus with 6 samples.

Results

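Intraflagellar transport (IFT) and BBSome genes were followed in Hsf5 knockout and control mouse testes taken at postnatal day 16. The genes were chosen by symbol among protein-coding rows: every Ift or Bbs symbol followed by a digit, with Bbip1, Ttc8, Wdr19, Wdr35, Traf3ip1, Cluap1, the dynein-2 genes Dync2h1, Dync2li1, Dync2i1 and Dync2i2, and the adaptors Arl6, Lztfl1 and Tulp3. This gave 35 genes of 29333 rows in the table, on 16 chromosomes, and all 35 passed the filter on low values, a mean of at least 10 over the libraries. The knockout samples are Hsf5-/- whole testes. The labels call the controls wild type, whereas the design text allows Hsf5+/- animals among them, and neither names a strain. Of the 3 samples that the labels list per group, control 1, control 2, knockout 1 and knockout 3 have values. The sources do not say that each sample is a separate animal, so p-values measure the spread between these samples, which may be technical.

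Cilia and sperm tails are built at their tips, and IFT is the railway that carries building material there. IFT-B trains move outward on kinesin-2, IFT-A and the dynein-2 motor bring them back, and the BBSome is a coat-like cargo adaptor that removes membrane proteins from the cilium. In the testis these genes serve the primary cilia of somatic and early germ cells and, later, the growing flagellum of the spermatid, whose parts begin to be transcribed in meiotic prophase. HSF5 is a heat shock factor family member found in spermatocytes.

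Each value is a normalised read count, a gene's reads divided by 1 size factor per library. In each library the values are whole multiples of the smallest one (within 1e-06), and these multiples, taken as reads, sum to between 16209093 and 18557898. Hsf5 itself was at 2541 and 3147 in the controls and 1926 and 1602 in the knockouts, a log2 fold change of -0.69 (SE 0.12, limma Benjamini-Hochberg adjusted p = 0.00716), so the knockouts still held 62.0% of the control level of gene-level reads, which do not show where in the transcript they lie. Without control 2 and without knockout 3 that call was lost in limma (adjusted p = 0.108 and 0.072). Control 2 was above control 1 in 31 of the 35 genes, with a median log2 difference of 0.17. Over all genes tested it was above in 9351 of 17480, with a median of 0.021. The median difference of knockout 3 from knockout 1 was -0.076, beside -0.017 over all genes tested.

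Knockout was compared with control gene by gene. Most of the transport genes were lower, and none was higher by the test. In total 27 of the 35 fell (limma on log2(value + 1), adjusted p under 0.05 over 17480 genes), against a background of 13.5% of all genes tested called lower and 3.28% called higher. Among the 11240 genes whose mean was at or above that of the lowest of the 35, 16.4% were called lower. The median log2 fold change of the 35 genes was -0.62, beside 0.015 over all genes tested, and the range ran from -1.98 for Ift140 to 0.12 for Bbs12. Both knockouts lay below both controls in 33 genes, which holds for 31.9% of all genes tested, and above both in 0, which holds for 29.8%. The groups overlapped in Bbs12 and Tulp3. For the genes that fell, the knockout mean was between 24.8% and 76.6% of the control mean, and 6 fell by at least 1 on the log2 scale, as 6.72% of all genes tested did. At an unadjusted p under 0.05, 31 were lower in limma and 0 were higher, and the authors' deposited table has 26 of them lower, by its own adjusted p, and 0 higher (at 0.05, 11.3% of the 20234 genes with an adjusted p there were lower). Markers of pachytene spermatocytes, the cells in mid meiotic prophase, were lower too, and 24 of 27 fell. Their summed level was 81786 in control 1 and 124552 in control 2, and 32335 in knockout 1 and 26092 in knockout 3. Control 2 was above control 1 in 26 of these markers, with a median log2 difference of 0.87. The part of these markers in the falls of the transport genes was not tested. In whole testis fewer cells of a type and less RNA per cell cannot be told apart. Without a mean-variance trend limma called 0 of the 35, with 28 lower at an unadjusted p under 0.05 and adjusted p from 0.086 upward. The share of all genes tested that was lower at an unadjusted p under 0.05 is not given here. Counts of lower genes at that unadjusted threshold, here and below, thus lack a background. The count of the 35 genes called lower at an adjusted p under 0.05 also moved with other settings. The count was 11 without control 2, 13 without knockout 3 and 13 without a filter on low values.

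**Figure D1:**
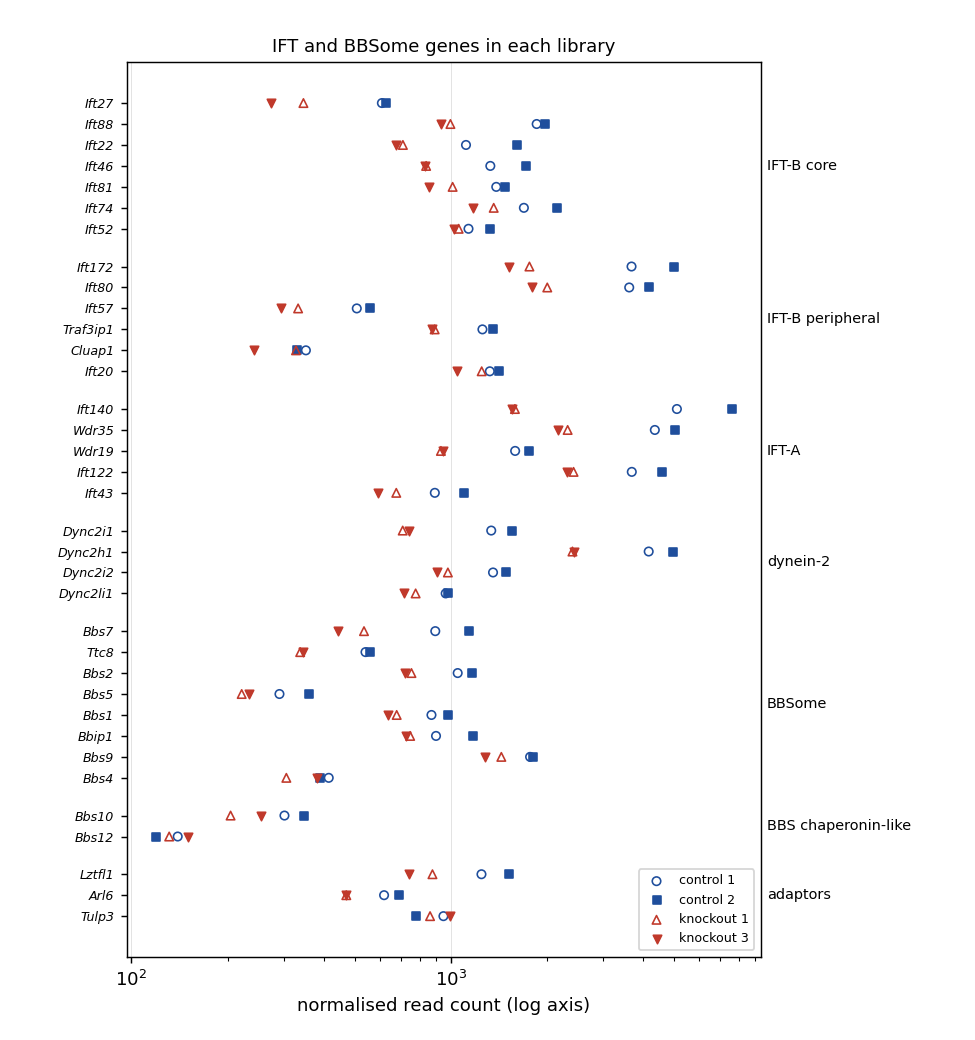
Normalised read count of the 35 genes in each library on a log axis, grouped by complex, with circles and squares for the controls and triangles for the knockouts. Both knockouts sit left of both controls in 33 rows, and the gap is widest for Ift140 (controls 5113 and 7592, knockouts 1589 and 1561).

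The promoters of these genes were read for the X-box, the element bound by the RFX transcription factors that control many ciliary genes. RefSeq windows (GRCm38.p6, 250 bases before to 50 after a start) were matched for 31 of the 35 genes, of which Dync2i1 and Dync2i2 matched by their older symbols. Ift80, Ift81, Ift122 and Dync2li1 have no entry in the table used here. The inverted repeat GTTNCC, then 0 to 3 bases, then GGNAAC, which reads the same on both strands, was found in 3 of the 31 genes, which is 9.68%, against 1.15% of protein-coding genes tested, 2.46% of those called lower, 3.70% of the motile axoneme list and 0.936% of all 27025 genes with a window. The stretches that hold it upstream of the start are shown because they are the most complete matches among genes that fell, with the repeat in capitals, together with the single arm of the repeat in Ift140, the gene that fell most.
Bbs7: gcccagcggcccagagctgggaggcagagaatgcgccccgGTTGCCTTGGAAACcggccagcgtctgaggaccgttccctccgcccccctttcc
Ift57: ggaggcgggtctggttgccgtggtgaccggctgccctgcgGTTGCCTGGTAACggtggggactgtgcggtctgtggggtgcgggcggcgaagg
Lztfl1: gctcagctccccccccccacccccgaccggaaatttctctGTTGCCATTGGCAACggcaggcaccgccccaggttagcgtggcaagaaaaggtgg
Ift140: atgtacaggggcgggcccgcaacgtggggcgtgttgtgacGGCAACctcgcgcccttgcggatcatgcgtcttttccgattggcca

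All 4 are written 5′ to 3′ on the strand of the gene and end before its start. The Bbs7 stretch is chr3:36613457-36613550 on the minus strand, with the repeat 121 to 108 bases before the start. That of Ift57 is chr16:49699194-49699286 on the plus strand, with the repeat 60 to 48 bases before the start, and that of Lztfl1 is chr9:123717735-123717829 on the minus strand, 164 to 150 bases before it. For Ift140 it is chr17:25015937-25016022 on the plus strand, and the capitals mark that arm as it reads from the opposite strand, 109 to 104 bases before the start. The arm GTTGCC on either strand, which the 3 repeats also contain, occurred in 12 of 31 genes (38.7%), against 15.1% of protein-coding genes tested, 22.3% of those called lower and 42.0% of the motile axoneme list. It stood in 11 of the 23 matched genes that fell and in 1 of the 8 that were not called, Bbs5. Paired heat shock element units (GAANNTTC or TTCNNGAA, either strand) occurred in 4 of 31, Ift22, Ift20, Dync2i1 and Lztfl1, or 12.9% against 13.9% of protein-coding genes tested. These are matches of letters in short windows, described without a test, and no binding was measured.

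IFT-A is the complex of the return trip, and all 5 of its genes that match the rule were called lower, with a median log2 fold change of -0.83. Ift140, a large subunit of its core, was at 5113 and 7592 in the controls and 1589 and 1561 in the knockouts. Its mean was 6353 ± 1753 in the controls and 1575 ± 20.0 in the knockouts (SD, n = 2 each), which left 24.8% and gave the largest change of the 35 genes, -1.98 (SE 0.16, limma adjusted p = 0.000217). The knockouts nearly coincided, while control 2 stood well above control 1. Wdr35, a subunit of the peripheral part of the complex, was at 4361 and 5051 in the controls and 2325 and 2175 in the knockouts (-1.06, SE 0.09, limma adjusted p = 0.000293). In Wdr35 control 2 was above control 1 by 0.21 on the log2 scale, beside a median of 0.17 over the 35 genes. The core subunit Wdr19 was at 1592 and 1759 in the controls and 932 and 943 in the knockouts (-0.83, limma adjusted p = 0.000777). Ift122, also in the core, was at 3693 and 4598 in the controls and 2426 and 2314 in the knockouts (-0.80, limma adjusted p = 0.00156). The higher knockout was 53.3%, 59.3% and 65.7% of the lower control for Wdr35, Wdr19 and Ift122, so the groups lay apart. Ift43, the small subunit, was at 892 and 1099 in the controls and 675 and 591 in the knockouts (-0.65, limma adjusted p = 0.0117). Ift140, Wdr35, Wdr19 and Ift122 were called without each library in turn, with adjusted p up to 0.0236, and Ift140 had a log2 fold change of -2.27 with control 1 left out and -1.70 with control 2 left out. Ift43 lost its call without control 2 and without knockout 3 (adjusted p = 0.124 and 0.113).

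The dynein-2 motor, which pulls IFT-A trains back to the cell body, was lower in all 4 of its genes that match the rule, with a median of -0.75. The heavy chain gene Dync2h1 was at 4172 and 4954 in the controls and 2407 and 2438 in the knockouts (-0.91, SE 0.092, limma adjusted p = 0.000574). The intermediate chain gene Dync2i1 was at 1339.9 and 1553 in the controls and 708 and 741 in the knockouts (-0.99, SE 0.11, limma adjusted p = 0.000662). These 2 stood at 53.1% and 50.1% of the control mean and were called without each library in turn. The other intermediate chain gene, Dync2i2, was at 1357 and 1487 in the controls and 980.2 and 905 in the knockouts (-0.59, limma adjusted p = 0.00436). The light intermediate chain gene Dync2li1 was at 965 and 979.7 in the controls and 777 and 712 in the knockouts (-0.39, limma adjusted p = 0.0325). Dync2li1 had the smallest fall of the 27 and lost its call whichever library was left out (adjusted p from 0.0909 to 0.241). It is also the 1 called gene that the authors' deposited table does not have under 0.05 (adjusted p = 0.0567 there). Dync2i2 lost its call without control 2 and without knockout 3 (adjusted p = 0.0621 and 0.0568).

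In the IFT-B complex, which carries tubulin and other cargo outward, 10 of the 13 genes that match the rule fell. In its core these were 6 of 7, with a median of -0.86. Ift88, the core subunit best known from mouse mutants with short or missing cilia, was at 1859.6 and 1973 in the controls and 998 and 931 in the knockouts (-0.99, SE 0.09, limma adjusted p = 0.000355). The GTPase gene Ift27 was at 609 and 626 in the controls and 346 and 275 in the knockouts (-1.0, limma adjusted p = 0.00244). Ift22, also a small GTPase, was at 1117 and 1610.4 in the controls and 709 and 672 in the knockouts (-0.96, limma adjusted p = 0.0047). The controls agreed closely for Ift88 and Ift27, and control 2 stood apart for Ift22. Ift46, which helps bring outer dynein arms into cilia, was at 1331 and 1723 in the controls and 838 and 831 in the knockouts (-0.86, limma adjusted p = 0.00266). Ift81, which binds tubulin with its partner Ift74, was at 1389 and 1475 in the controls and 1014 and 855 in the knockouts (-0.62, limma adjusted p = 0.00583). Ift74 itself was at 1696 and 2158 in the controls and 1364 and 1172 in the knockouts (-0.60, limma adjusted p = 0.0155). The groups of Ift46, Ift81 and Ift74 lay apart, with the widest spread of controls in Ift74 and Ift46. Ift52, which holds the core together, was at 1137 and 1329 in the controls and 1059 and 1023 in the knockouts and was not called (-0.24, limma adjusted p = 0.161). Ift88, Ift22 and Ift46 were called without each library in turn. Ift27 lost its call without control 2 (adjusted p = 0.0655), and Ift81 and Ift74 without control 2 (adjusted p = 0.0934 and 0.145) and without knockout 3 (0.0643 and 0.139).

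Of the peripheral IFT-B genes that match the rule 4 of 6 were lower, with a median of -0.66. Ift172, the largest IFT-B protein, was at 3686 and 5007 in the controls and 1765 and 1521 in the knockouts, a mean of 4346 ± 934 in the controls and 1643 ± 172 in the knockouts (SD, n = 2 each) and a log2 fold change of -1.39 (SE 0.14, limma adjusted p = 0.000561), second to Ift140 in size. Ift80, a WD40 repeat subunit, was at 3625 and 4195 in the controls and 2007 and 1801 in the knockouts (-1.04, SE 0.096, limma adjusted p = 0.000396). The higher knockout was 47.9% of the lower control for Ift172 and 55.4% for Ift80. Ift57 was at 508 and 558 in the controls and 333 and 294 in the knockouts (-0.77, limma adjusted p = 0.00591). Traf3ip1, a microtubule-binding subunit, was at 1258 and 1356 in the controls and 891 and 875 in the knockouts (-0.56, limma adjusted p = 0.00448). Both of these genes had close replicates. Ift20, which also works at the Golgi, was at 1326 and 1412 in the controls and 1251 and 1045 in the knockouts and was not called (-0.26, limma adjusted p = 0.147). Cluap1 was at 352 and 329 in the controls and 328 and 243 in the knockouts and was not called either (-0.27, limma adjusted p = 0.337). In Cluap1 knockout 1 lay just below control 2. Ift172 and Ift80 were called without each library in turn, whereas Ift57 and Traf3ip1 lost the call without control 2 (adjusted p = 0.0965 and 0.055) and without knockout 3 (0.0683 and 0.0533). Annotated exons of Cluap1 share 22.4% of their bases with those of Gm20695 on the same strand, and how reads in both genes were assigned is unknown here.

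**Figure D2:**
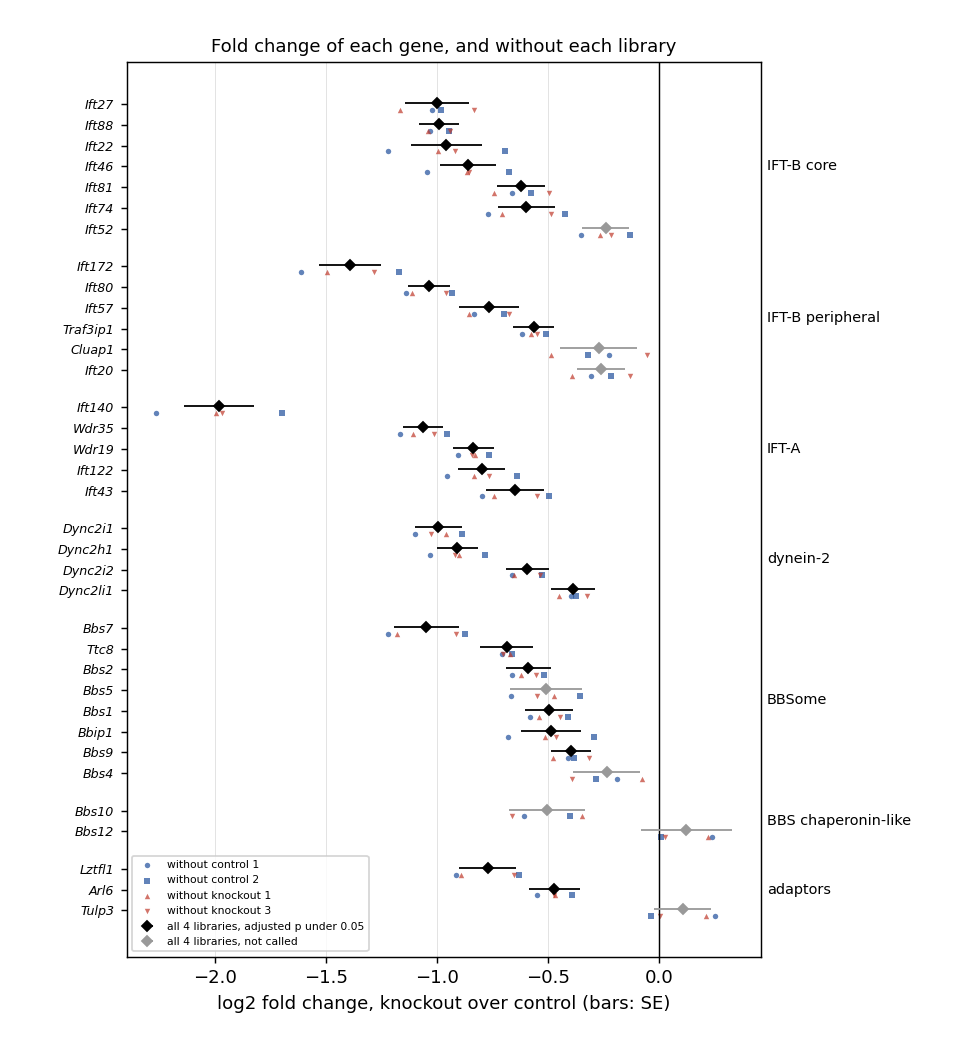
Log2 fold change of knockout over control for each of the 35 genes (diamonds, bars for SE, black where the adjusted p is under 0.05 and grey otherwise), with small markers for the value without each library. Ift140 stands apart at -1.98, and the other called genes lie between -1.39 and -0.39. None of the 27 called genes crosses 0 with any library left out, which must hold where both knockouts lie below both controls.

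In the BBSome, the cargo adaptor that rides on IFT trains, 6 of 8 genes were called lower. Their group median of -0.50 was nearer 0 than that of any IFT or dynein-2 group, a difference that was not tested. Bbs7 was at 895 and 1138 in the controls and 535 and 445 in the knockouts, 48.2% of the control mean (-1.05, SE 0.15, limma adjusted p = 0.00215). Its partner in the complex, Bbs2, was at 1052 and 1163 in the controls and 754 and 718 in the knockouts (-0.59, limma adjusted p = 0.00556). Ttc8, a tetratricopeptide repeat subunit, was at 541 and 558 in the controls and 338 and 345 in the knockouts (-0.69, limma adjusted p = 0.00605), with both groups tight. Bbs1, which contacts the membrane recruiter Arl6, was at 871 and 979.7 in the controls and 677 and 634 in the knockouts (-0.49, limma adjusted p = 0.0167). Bbip1, its smallest subunit, was at 899.7 and 1178 in the controls and 747 and 722 in the knockouts (-0.49, limma adjusted p = 0.0417). Bbs9, a scaffold subunit, was at 1773 and 1809.7 in the controls and 1441 and 1286 in the knockouts (-0.40, limma adjusted p = 0.0196). For Bbip1 control 2 stood apart from the other libraries. Bbs5, a lipid-binding subunit, was at 291 and 361 in the controls and 221 and 234 in the knockouts and was not called (-0.51, limma adjusted p = 0.0692). Bbs4 was at 415 and 389 in the controls and 306 and 381 in the knockouts and was not called (-0.23, limma adjusted p = 0.337). The groups overlapped in neither, and in Bbs4 knockout 3 came close to control 2. No BBSome gene was called without each library in turn. All 6 lost the call without control 2 (adjusted p from 0.0505 for Bbs7 to 0.212 for Bbip1), and 5 of them, all but Bbs7, without knockout 3 (0.0543 to 0.217). Ttc8, Bbs1 and Bbip1 lost it without knockout 1 (0.0512, 0.0712 and 0.149), and Bbs9 without control 1 (0.0746).

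The chaperonin-like genes Bbs10 and Bbs12, whose products help assemble the BBSome, were not called. Bbs10 was at 302 and 348 in the controls and 204 and 255 in the knockouts (-0.50, limma adjusted p = 0.0825), and the knockouts lay below the controls. Bbs12 was at 139.6 and 119 in the controls and 131 and 151 in the knockouts (0.12, limma adjusted p = 0.727). Of the adaptors, Lztfl1, which regulates movement of the BBSome, was at 1249 and 1520.2 in the controls and 877 and 743 in the knockouts (-0.77, SE 0.13, limma adjusted p = 0.00453), with the groups apart. Arl6, the small GTPase that recruits the BBSome to membranes, was at 619 and 689 in the controls and 471 and 471 in the knockouts (-0.47, limma adjusted p = 0.0268). Tulp3, which links IFT-A to membrane receptors, was at 949 and 777 in the controls and 862 and 995 in the knockouts (0.11, limma adjusted p = 0.616). Bbs12 and Tulp3 were thus the only 2 of the 35 whose groups overlapped and whose difference was above 0, and both signs turned under scaling to Sertoli cell markers (-0.098 and -0.12), that of Tulp3 also without control 2 (-0.036). None of these values was called. The call of Lztfl1 was lost without control 2 and without knockout 3 (adjusted p = 0.0781 and 0.0538), and that of Arl6 whichever library was left out (0.0517 to 0.173).

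Levels between genes were compared as normalised reads per kilobase of exon, with exon lengths from GENCODE M21 matched by gene ID for all 35. Each length joins the exons of all annotated transcripts of a gene, from 1525 bases for Ift20 to 12428 for Ift80, for example. Ranks between genes thus also depend on the annotation. In the controls Ift20 was the highest at 898, ahead of Ift140 (762), Ift74 (725), Ift172 (657) and Wdr35 (647), while Bbs12 (53.1) and Bbs4 (66.5) were the lowest. Ift140 and Ift74 changed places between the 2 controls, so their order is within the spread. In the knockouts Ift20 stayed highest (753) and Ift74 came next (477), but Ift140 dropped from rank 2 of the 35 to rank 16 (189), and it held rank 16 in knockout 1 and rank 15 in knockout 3. Within IFT-A it went from the highest of the 5 genes to below Ift43 (384), Wdr35 (309) and Ift122 (229.7), though above Wdr19 (83.1). Ift172 moved from rank 4 to rank 8 (248), with ranks 6 and 4 in controls 1 and 2 and ranks 8 and 9 in knockouts 1 and 3. These ranks are a description of the same libraries that gave the fold changes. In GENCODE M21 exons of 8 of the genes overlap those of another gene, and no source used here says whether strand was used in counting. Bbs12 shares 32 bases with Cetn4 on the opposite strand, a gene with a log2 fold change of -2.10 (limma adjusted p = 0.00124), and Ift88, Ift57, Bbs4, Bbip1, Lztfl1 and Arl6 share 55 to 490 bases with a neighbour.

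**Figure D3:**
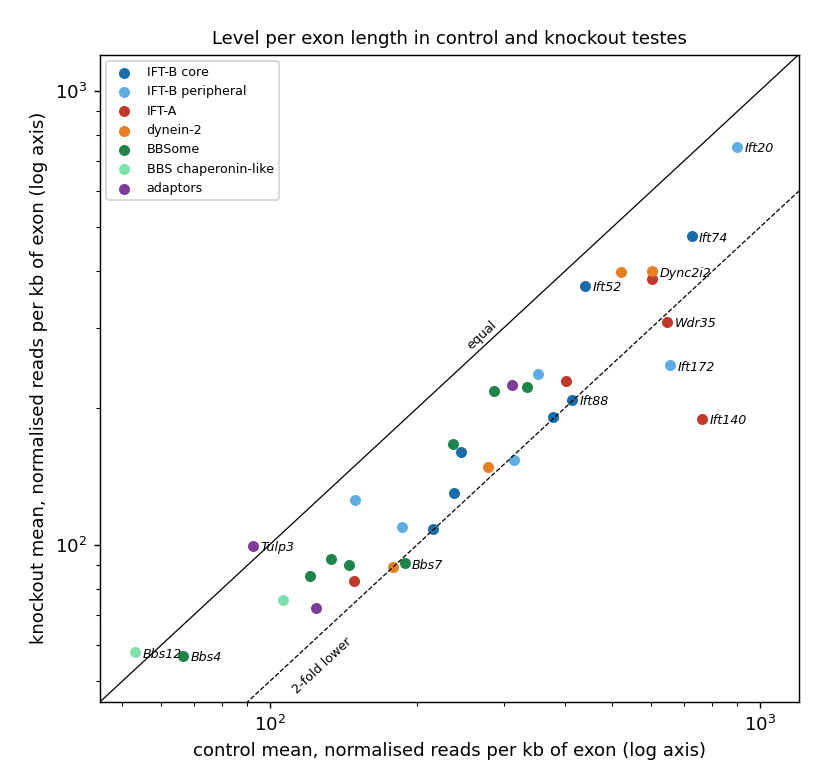
Mean level per kilobase of exon in the knockouts against the controls, both axes on a log scale, 1 point per gene coloured by complex, with lines for equal levels and for a 2-fold lower knockout. Most points lie between the lines, Ift140 (762 against 189) and Ift172 (657 against 248) lie farthest below, and Bbs12 and Tulp3 lie just above the line of equality.

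Further genes of the transport machinery, outside the symbol rule, were read from separate lists. Of 21 tested genes for further IFT and BBS subunits, shared dynein light chains and ciliary cargo carriers, 8 fell and 1 rose, with a median log2 fold change of -0.32. Ttc30a2, an IFT-B core subunit gene under its older symbol, was at 735 and 1300.0 in the controls and 195 and 146 in the knockouts (-2.52, limma adjusted p = 0.000574), and its near copy Ttc30a1 at 935 and 1227 in the controls and 396 and 384 in the knockouts (-1.45). The IFT-B core genes Ttc26 (-0.93), Ttc30b (-0.32) and Hspb11 (0.30) were also outside the rule, and of these Ttc26 was called lower (limma adjusted p = 0.00105, 0.323 and 0.282). Reads of the Ttc30 copies can be split between them by the counting, so their separate values are uncertain. Dynlrb2, a dynein light chain of the roadblock family, was at 258 and 341 in the controls and 95.2 and 37.9 in the knockouts (-2.28, limma adjusted p = 0.00502), whereas its relative Dynlrb1 was at 1138 and 968 in the controls and 1439 and 1283 in the knockouts and was not called (0.37, limma adjusted p = 0.0553). Of the other light chain genes that dynein-2 uses, Dynlt2b (-0.94) was called lower, and Dynll1 (-0.069) and Dynlt1b (-0.49) were not called (limma adjusted p = 0.00226, 0.566 and 0.0799). Ttc21a was at 366 and 701 in the controls and 138 and 118 in the knockouts (-1.98, limma adjusted p = 0.00215), and its relative Ttc21b, the remaining IFT-A subunit, at 4214 and 4596 in the controls and 2132 and 1898 in the knockouts (-1.13, limma adjusted p = 0.000199). With Ttc21b, all 6 IFT-A subunit genes tested were lower. The 1 rise was Unc119b, a carrier of lipid-modified cargo, at 1664 and 1549 in the controls and 2153 and 1915 in the knockouts (0.34, limma adjusted p = 0.0389). That call was lost whichever library was left out (adjusted p from 0.081 to 0.258), and the call of Dynlrb2 without control 1 and without control 2 (0.0605 and 0.143). Apart from Ttc30a2, Dynlrb2 and Ttc21a, the genes of this list were named after their values were seen.

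For the outward motor, 3 of 5 kinesin-2 genes fell, with a median of -0.33: Kif3b (-0.64), Kifap3 (-0.47) and Kif3a (-0.33), which together form the heterotrimeric motor (limma adjusted p = 0.00798, 0.00735 and 0.0268). None of the 3 was called without control 2 (adjusted p = 0.0571, 0.0663 and 0.132) or without knockout 3 (0.0521, 0.0826 and 0.163), and Kif3a lost its call without control 1 as well (0.0626). Without knockout 1 only Kifap3 was called (0.044). In the transition zone, the gate at the base of the cilium, 9 of 25 genes fell and 0 rose, with a median of -0.39. At an unadjusted p under 0.05 limma had 16 lower and 1 higher. The call count was 4 without control 2, 4 without knockout 3, 5 without knockout 1, and 17 with libraries scaled to Sertoli cell markers. Rpgrip1, a scaffold of that gate, was at 523 and 1306 in the controls and 39.1 and 36.9 in the knockouts (-4.41, SE 0.37, limma adjusted p = 0.000272), a larger change than any of the 35 transport genes had. Ahi1, a further gene of that zone, was at 1448 and 2214 in the controls and 592 and 647 in the knockouts (-1.53, limma adjusted p = 0.000911). For context, 78 of 97 tested genes of the motile axoneme fell, with a median of -2.01 against -0.62 for the 35 transport genes. The difference between these lists was not tested. In that list Tekt3, Dnah17 and Dnah6 had the largest fitted falls (-6.70, -6.29 and -4.94, limma adjusted p = 0.00115, 7.93e-05 and 0.000211). The value of Tekt3 varied with the pseudocount (-7.29 at 0.5 and -5.08 at 5). At a pseudocount of 5 Dnah17 fell more (-6.14). Control 2 over control 1 had a median log2 difference of 0.73 in the axoneme list and 0.17 in the transport genes.

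**Figure D4:**
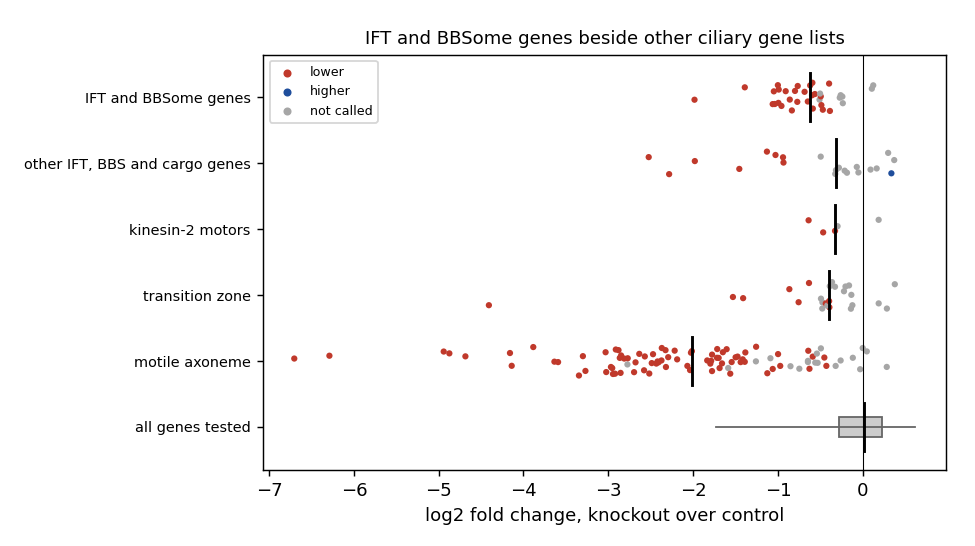
Log2 fold change of knockout over control for each tested gene of 5 lists (points, coloured by call, with a black line at the median), beside all genes tested (box for the interquartile range, line for the 5th to 95th percentile). The transport genes centre on -0.62, the motile axoneme on -2.01 and all genes on 0.015.

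Transcription regulators of ciliary and pachytene genes and markers of further testis cell types were read in the same libraries. Of 11 regulators 6 fell, led by Rfx4 (-1.83), Crem (-1.62) and the X-box factor gene Rfx2 (-1.36; limma adjusted p = 0.00175, 0.00107 and 0.000606). Rfx1, Rfx3 and Foxj1, the regulator of motile cilia, were at 0.37, 0.24 and 0.13 and were not called (limma adjusted p = 0.0793, 0.305 and 0.777). These 3 were named after their values were seen. Early prophase markers had 7 of 30 lower and a median of -0.073 (summed level 72217 to 79742 in the controls and 62959.5 to 73589.7 in the knockouts), and spermatogonial markers 1 of 22 lower and 4 higher (24839 to 26154 in the controls and 27854 to 27903 in the knockouts). Sertoli cell markers had 11 of 30 higher and 0 lower in limma, 16 and 0 at an unadjusted p under 0.05 (185311 to 192758 in the controls and 213368 to 224767 in the knockouts). Without control 2, 17 of the 27 pachytene, 1 of the 30 early prophase, 3 of the 11 regulator and 0 of the Sertoli genes were called (11 Sertoli genes higher at an unadjusted p under 0.05), and Rfx4 lost its call (limma adjusted p = 0.0787). With any other library left out 3 or 4 Sertoli genes were called higher, and without knockout 3 the early prophase list had 1 lower and 2 higher, with a median above 0 (0.047), as under scaling to library totals (0.036). The 4 higher calls among spermatogonial markers were 2 without control 1, and 0 without control 2, without knockout 1, without knockout 3 and under Sertoli scaling (3, 5, 5 and 0 at an unadjusted p under 0.05 in limma). Round spermatid markers had 3 of 8 tested genes lower and 0 higher in limma. Summed over 20 genes, they were at 1831 and 3337 in the controls and 785 and 578 in the knockouts. Of 12 Leydig cell markers 0 were lower and 1 was higher, and of 8 myoid, 11 macrophage and 10 endothelial markers 0 were called. Under Sertoli scaling 3 Leydig, 2 myoid and 1 macrophage marker were lower. The part of these marker differences in the falls of the transport genes was not tested. Genes of the epididymis and of the multiciliated efferent ducts had a summed level of 37.8 to 48.6 in the controls and 24.1 to 41.0 in the knockouts over 8 genes, of which 5 (Adam7, Crisp1, Lcn8, Spink8 and Defb41) were at 0 in at least 1 library.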

How the data were processed

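RNA-seq of whole testes was read from 1 table of 29333 genes. Its library columns hold a signal, read counts divided by 1 size factor per library, which the authors deposited. Library preparation used the NEBNext Ultra RNA kit on total RNA, per the labels' protocols. Trimming, alignment, counting and testing tools are listed as cutadapt, Bowtie2, featureCounts and DESeq2, with the build mm39, per the submitters' processing notes. No source used here gives counting rules, annotation or versions. The table also holds log2 fold changes, their standard errors and test statistics (used here as score columns) and p-values, all computed by the authors per the file headers.

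Control 3 and knockout 2 were not analysed here. The deposited values were tested as log2(value + 1) with limma 3.58.1 in R 4.3.3 (empirical Bayes with a mean-variance trend, 2 residual and 6.3 prior degrees of freedom), over 17480 genes with a mean of at least 10, with Benjamini-Hochberg adjustment over these genes and a threshold of 0.05. A fold change on this scale understates the change of low genes. The procedure was tested on simulated counts with the same dispersion for every gene and independent replicates. That setting does not give its error rate on these libraries. Every one of the 35 genes is named, and values in each library are given for each called gene. In each list of ciliary genes and regulators, but not of cell type markers, the 3 called genes with the largest change are named, except 1 gene of the transition zone list that is not reported here. Alternatives changed the filter, the pseudocount, the trend and the scaling, and left out each library in turn. Count-based tests of the whole multiples in the table were not run. The genes and lists were chosen with earlier results of these data known. Exon lengths came from GENCODE M21 (GRCm38) and promoter windows from RefSeq (GRCm38.p6), a different build from that of the table, so they were matched by gene ID or symbol and not by coordinates.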

Additional observations from a re-analysis of the deposited data

How the results depend on the processing

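The 27 lower and 0 higher calls among the 35 genes were the same in number with pseudocounts of 0.5 and 5 and with a minimum mean of 50. With no filter 13 were lower, scaled to library totals 23 and scaled to 30 Sertoli cell markers 31. Leaving out each library gave 11 to 24 lower (control 1 out, 24; control 2 out, 11; knockout 1 out, 22; knockout 3 out, 13), and 0 higher in each setting. Leaving out a library leaves its group with 1 sample, which is assumed to vary like the other group. Without the mean-variance trend 0 were called lower by limma, with 28 at an unadjusted p under 0.05, and the cause of these differences was not tested. The Sertoli scaling added Ift52, Ift20, Bbs5 and Bbs10, and the scaling to library totals lost Dync2li1, Bbip1, Bbs9 and Arl6. Signs turned for Bbs12 (-0.098) and Tulp3 (-0.12) under the Sertoli scaling and for Tulp3 without control 2 (range with each library left out -0.036 to 0.25), none of them called.

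Over all genes, 2366 were lower and 573 higher. With no filter these counts were 815 and 37, without the trend 40 and 0 (1456 higher at an unadjusted p under 0.05), scaled to library totals 2007 and 1511, scaled to Sertoli markers 4628 and 91, and without each library 889 to 2096 and 31 to 337. The share of calls that were lower was 80.5%, against 57.0% for library totals and 98.1% for Sertoli markers. These scalings put the median of all genes at 0.12 and -0.21, against 0.015, and that of the 35 genes at -0.51 and -0.84, against -0.62. TMM scaling and count-based tests were not run. No paired analysis was possible because the libraries with values share only 1 replicate number. With 2 libraries a group, small falls are at the limit of what can be called.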

Other observations

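Ift88os, a long non-coding RNA annotated on the strand opposite to Ift88, matched the symbol rule but is not protein coding. It was at 3.88 and 12.9 in the controls and 8.02 and 11.3 in the knockouts, too low to be tested.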
